A study of Homo sapiens with 6 samples.

Results

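The cell holds a set of short RNAs that act through their folded structure and their bound proteins. The 10 RNAs considered here are RN7SK, RMRP, RPPH1, RNU4-1, RNU4-2, RNU6-1, RNU6-15, RNY1, RNY5 and VTRNA1-1, chosen by name as small noncoding RNAs other than small nucleolar RNAs. Rows of the deposited table were taken where the target name equalled one of these names. This gave 2 of the 10, RN7SK and RPPH1, among 37879 rows in all. The other 8 names matched no row and were not analysed here.

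As background, RN7SK (7SK RNA) is a nuclear RNA that, with the proteins HEXIM1 or HEXIM2, LARP7 and MEPCE, holds P-TEFb inactive. P-TEFb is the kinase CDK9 with a cyclin T, and it releases paused RNA polymerase II into elongation. RPPH1 (H1 RNA) is the RNA subunit of RNase P, the enzyme that trims the 5′ ends of precursor tRNAs. Both RNAs are made by RNA polymerase III from promoters that lie upstream of the gene, and polymerase III transcription is known to be low in mitosis. Their mature forms have no poly(A) tail. The labelling kit named in the labels primes cDNA from poly(A) tails, and by what route these RNAs were labelled was not tested. RMRP, Y, vault and U RNAs are the like RNAs of RNase MRP, of the Ro and vault particles and of the spliceosome.

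Total RNA was measured on 6 arrays of HEK293T cells, a human embryonic kidney line that carries the SV40 large T antigen. The control group (3 arrays) was transfected with an empty vector. The Stau1 group (3 arrays) was transfected with plasmids coding for Stau155-FLAG, the tagged 55-kDa isoform of the RNA-binding protein Staufen1. Cells of both groups were held in prometaphase by 50 ng/ml nocodazole, which stops spindle assembly, for 15 h according to the labels, although a longer time is stated in the study's methods. The transfection was transient, so a culture can hold cells without plasmid. Nothing in the labels says whether the 3 samples of a group came from separate cultures, so the tests measure the spread between these samples, which may be technical.

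The median intensity per array ranged from 83.0 to 102.2, and 12730 to 13469 rows of an array were detected, that is, had a detection p under 0.05, a value that compares a row with the negative control beads of its array. A row was kept where this held on at least 3 of the 6 arrays, which left 13285 rows. The arrays differed within the control group: control replicate 1 had the lowest array weight (0.399), and control replicate 3 was the next lowest (0.603). Of the markers for HEK293T cells, NEFL, NEFM and VIM were detected on all 6 arrays, while PAX2 was detected on 1. All 5 mitotic markers (CCNB1, PLK1, CDC20, AURKA and TOP2A) were detected on every array. Of 5 markers of other cell types, PTPRC, ALB and GFAP were detected on none, MYH7 on 1 and INS on all 6, at intensities of no more than 128.3.

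RN7SK lies on chromosome 6 (plus strand, by the deposited annotation, which names no build). Its row is an average over probes, since its mean bead number was not whole on 2 arrays and its detection p came in finer steps than that of rows of 1 probe. The deposited intensity was 200.5, 266.8 and 374.8 on control arrays 1 to 3 (replicates 1 to 3) and 329.9, 283.0 and 309.6 on Stau1 arrays 1 to 3. Control replicate 3 was the highest of all 6 arrays and control replicate 1 the lowest, so the groups overlapped. Against the background mean of the same array, the intensity was 2.50-fold on control replicate 1 and 4.42-fold on Stau1 replicate 1, the lowest and the highest of the 6. RN7SK was detected on all 6 arrays.

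RPPH1 lies on chromosome 14 (minus strand) and its row held 1 probe by the same criteria. Its intensity was 113.1, 119.6 and 184.6 on control arrays 1 to 3 (replicates 1 to 3) and 155.6, 154.0 and 156.5 on Stau1 arrays 1 to 3. Control replicates 1 and 2 lay below every Stau1 array and control replicate 3 lay above every one. This RNA was close to background: its intensity stood 2.01 background SDs above the background mean on control replicate 1 and 5.04 on control replicate 3. It was detected on all 6 arrays, with a detection p from 0.00395 to 0.0237. Levels of the 2 RNAs come from different probes and were not compared with each other.

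**Figure D1:**
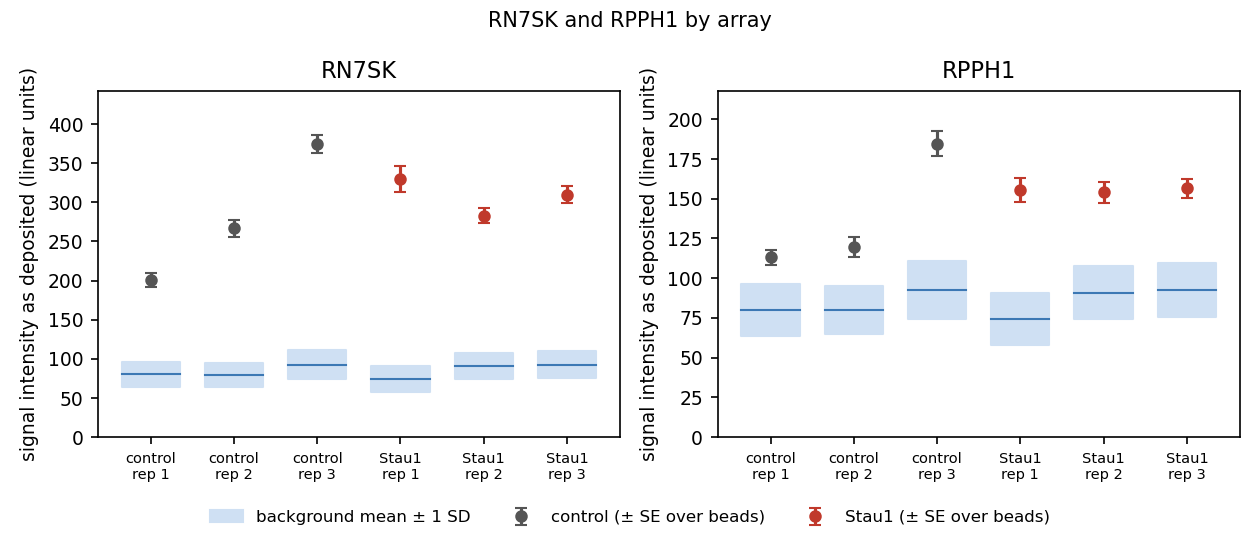
Deposited signal intensity (linear units, axis from 0) of RN7SK (left) and RPPH1 (right) on each array, with bars of ± 1 SE over beads; the blue line and band are the background mean ± 1 SD of that array. RN7SK ran from 200.5 (control replicate 1) to 374.8 (control replicate 3), and RPPH1 from 113.1 to 184.6 on the same arrays.

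After background correction, quantile normalization and log2 transformation, the RN7SK level was 7.69 ± 0.24 (SD, n = 3) in the control group against 7.84 ± 0.31 (SD, n = 3) with Stau1. By array, control 1 to 3 gave log2 values of 7.42, 7.77 and 7.89, and Stau1 1 to 3 gave 8.17, 7.57 and 7.77. On this scale Stau1 replicate 1 was the highest array, and Stau1 replicate 2 lay below 2 of the 3 controls. The log2 difference, Stau1 minus control, was 0.14 (SE 0.18), a fold of 1.10, short of the threshold (limma, adjusted p = 0.999). Its 95% interval ran from -0.25 to 0.54, or from 0.841-fold to 1.45-fold. Permuting the 6 arrays in an exact two-sided test gave p = 0.5, where the smallest p this design allows is 0.1. The sign rested on Stau1 replicate 1: without that array the log2 difference was -0.02, and without control replicate 1 it was 0.00706. In total RNA of a culture, fewer cells with an RNA and less of it per cell cannot be told apart.

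RPPH1 also failed the test. Its log2 level was 6.05 ± 0.38 (SD, n = 3) in the control group against 6.37 ± 0.25 (SD, n = 3) with Stau1. By array, control 1 to 3 gave log2 values of 5.77, 5.88 and 6.49, and Stau1 1 to 3 gave 6.66, 6.20 and 6.24. Control replicate 3 lay among the Stau1 arrays, and the other 2 controls lay below all of them. The log2 difference was 0.32 (SE 0.20), a fold of 1.25 (limma, adjusted p = 0.999). The 95% interval from -0.11 to 0.75 spans 0.926-fold to 1.69-fold, and the exact two-sided permutation test gave p = 0.3. Without control replicate 3 the log2 difference was 0.53 (adjusted p = 0.239), and without Stau1 replicate 1 it was 0.18. With the background inferred from all rows it was 0.02.

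Of the 2 RNAs, 0 were called, and over all kept rows limma called 0 of 13285 (0%). At an unadjusted p under 0.05 in limma there were 0 of the 2, beside 495 of all kept rows (3.73%). The groups did not overlap in 0 of the 2, beside 1051 of all kept rows (7.91%). These counts over all rows rested on single arrays: without control replicate 3 limma called 47 of 12854 rows and had 1658 at an unadjusted p under 0.05, RPPH1 among the latter and not among the former. Without control replicate 2 the rows at an unadjusted p under 0.05 numbered 293, without Stau1 replicate 3 they numbered 222, and 0 were called in both cases. The methods' t-test (two-sided, of equal variance) also called 0 of the 2 and 0 of all kept rows after Benjamini-Hochberg adjustment, and 0 of the 2 were past 2-fold; at an unadjusted p under 0.05 it gave 464 kept rows. Both RNAs varied more within a group than the median kept row, and rows of like intensity were not compared. The SD among controls was 0.24 for RN7SK and 0.38 for RPPH1 against a median of 0.17 over all kept rows. These stood at percentiles 71.9 and 93.1 of all kept rows. Among Stau1 arrays the SD was 0.31 for RN7SK and 0.25 for RPPH1 against a median of 0.12, at percentiles 95.9 and 90.6.

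The error over beads covers technical noise within an array only. For RN7SK the SE over beads was 3.09% to 5.05% of the intensity, which after subtraction of the background mean is 0.06 to 0.11 on the log2 scale, while the SD of the normalized log2 values within groups was 0.28. For RPPH1 the SE over beads was 3.75% to 5.10% of the intensity, or 0.12 to 0.22 on the log2 scale, and the SD of the normalized log2 values within groups was 0.33. The errors and the SDs were derived with different background corrections and were not tested against each other. Both RNAs had similar profiles over the arrays, with a Pearson's r of 0.83 and a Spearman's rho of 0.94 over 6 arrays, as a description. These 6 points share the normalization and the brightness of each array. On the log2 scale both were lowest on control replicate 1 and highest on Stau1 replicate 1.

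Other structured RNAs of the table were set beside them. RN7SL1, the 7SL RNA of the signal recognition particle, which is also a polymerase III product, was the only further kept row found by a fixed name rule. RNU12 and RNU2-1, the U12 and U2 RNAs of the spliceosome, were found by the same rule but were detected on none of the 6 arrays, with a lowest detection p of 0.134 and 0.203. The U6atac row (HS.545589), BCYRN1, TERC and the 28S rRNA row (LOC100008589) were chosen after their values were seen. U6atac RNA works in the minor spliceosome, BCYRN1 is a polymerase III RNA related to 7SL, TERC is the RNA template of telomerase, and 28S rRNA is part of the large ribosomal subunit.

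RN7SL1 resembled RN7SK. By array, control 1 to 3 gave log2 values of 14.05, 14.37 and 14.59, and Stau1 1 to 3 gave 14.64, 14.28 and 14.51. Stau1 replicate 1 was highest and control replicate 1 lowest, as for both RNAs above, and the groups overlapped. The log2 difference was 0.14 (SE 0.12; limma, adjusted p = 0.999).

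TERC had the largest difference of the 7 kept structured RNAs. By array, control 1 to 3 gave log2 values of 5.61, 5.48 and 6.74, and Stau1 1 to 3 gave 6.82, 6.51 and 6.43. The first 2 controls stood apart from the other 4 arrays, and control replicate 3 lay within the Stau1 group. On those first 2 controls TERC was close to background, at 1.72 and 1.67 background SDs above the background mean. The log2 difference of 0.64 (SE 0.27) did not pass (limma, adjusted p = 0.999).

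The U6atac row differed by 0.30 (SE 0.17) on the log2 scale and the 28S rRNA row by 0.31 (SE 0.11), both higher in Stau1, and neither passed in limma (adjusted p = 0.999 for each). BCYRN1 went the other way, with a log2 difference of -0.09 (SE 0.12; limma, adjusted p = 0.999). In each of these 3 rows the groups overlapped. Pearson's r with the mean profile of RN7SK and RPPH1 over 6 arrays was 0.93 for RN7SL1, 0.93 for U6atac, 0.84 for TERC, 0.71 for 28S rRNA and 0.41 for BCYRN1.

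**Figure D2:**
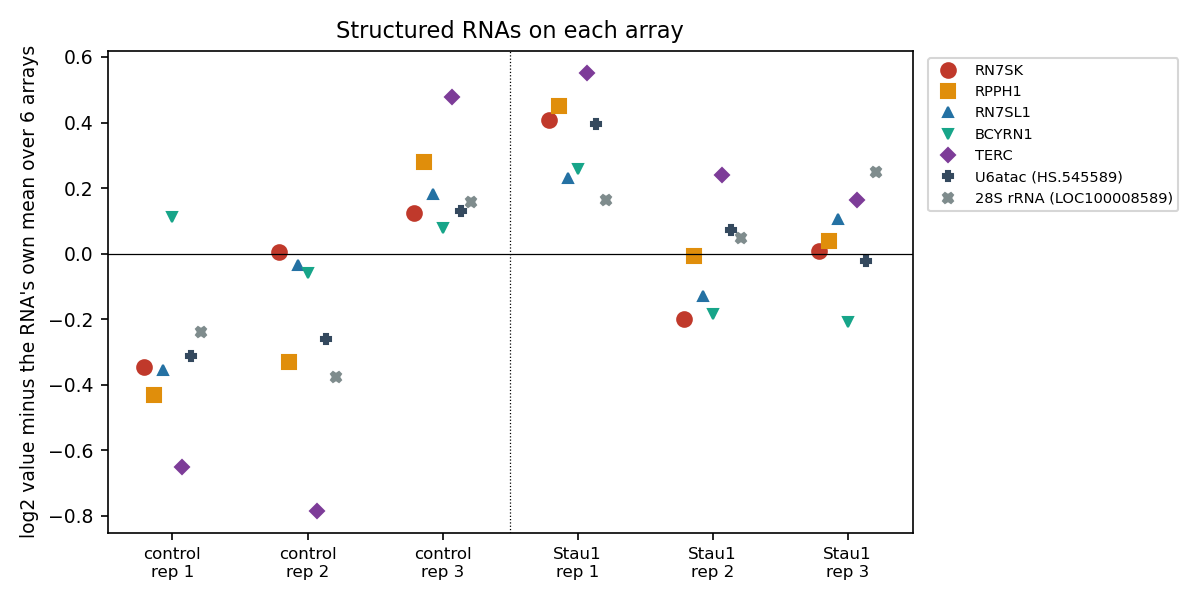
Log2 value of each kept structured RNA minus its own mean over the 6 arrays, by array, with the control arrays left of the dotted line and the Stau1 arrays right of it. RN7SK and RPPH1 were lowest on control replicate 1 and highest on Stau1 replicate 1, and TERC was low on control replicates 1 and 2 alone.

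**Figure D3:**
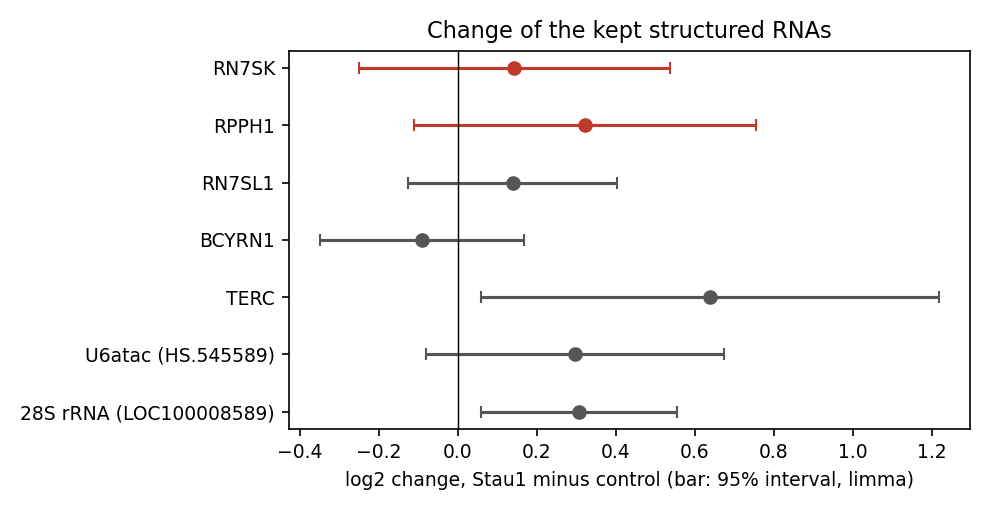
Log2 difference (Stau1 minus control, n = 3 each) of the kept structured RNAs with its 95% interval from limma. The intervals of RN7SK (-0.25 to 0.54) and RPPH1 (-0.11 to 0.75) include 0; those of TERC and 28S rRNA do not, before any adjustment, and their adjusted p was 0.999.

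Control replicate 3 gave values above those of both other controls for RN7SK, for RPPH1 and for 4 of the 5 further kept structured RNAs, BCYRN1 being the exception. Over all kept rows this held for 32.3%. Of those 5, all but RN7SL1 were chosen after their values were seen, so their count is a description only. The log2 value of control replicate 3 minus the mean of control replicates 1 and 2 was 0.29 for RN7SK, 0.66 for RPPH1 and 1.20 for TERC, beside a median of -0.00356 over all kept rows. Within the distribution of this difference over all kept rows, RN7SK stood at percentile 86.2 and RPPH1 at percentile 98.2. The part of this array's handling in these values was not tested.

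Small nucleolar and Cajal body RNAs, which guide modification of rRNA and spliceosomal RNAs, are a further class of short structured RNAs on the array. Of 59 such rows 36 were kept, and 33 of these (91.7%) had a higher mean in Stau1, against 49.4% of all kept rows. Their median log2 difference was 0.20, beside -0.00206 over all kept rows, and it ranged from -0.18 to 1.62. In limma 0 passed, with 4 of the 36 at an unadjusted p under 0.05, beside 3.73% of all kept rows. Control replicate 3 exceeded both other controls in 31 of the 36 (86.1%). The median difference of RN7SK and RPPH1 was 0.23, so the 2 RNAs lay near the middle of this class, and the direction of the 2 was not shown to be particular to them.

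The protein partners were read from lists of genes. Most genes named below had the lowest p of their list, a choice that favours groups that do not overlap. Of the 7SK snRNP and P-TEFb list (7 genes), 6 were kept and HEXIM1 was not. In limma 0 passed in either direction, with 1 of the 6 at an unadjusted p under 0.05, beside 3.73% of all kept rows. The groups did not overlap in 2 of the 6, beside 7.91% of all kept rows. The median log2 difference of the list was 0.00841, with 3 genes higher and 3 lower in Stau1. MEPCE, the enzyme that caps 7SK RNA, had the largest. By array, control 1 to 3 gave log2 values of 10.58, 10.93 and 11.20, and Stau1 1 to 3 gave 11.43, 11.28 and 11.37. The lowest Stau1 array exceeded the highest control. The log2 difference was 0.46 (SE 0.13; limma, adjusted p = 0.999). LARP7, which binds the 3′ end of 7SK RNA, differed by 0.18 (SE 0.14; limma, adjusted p = 0.999), and CDK9 by -0.01.

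Of the 10 proteins of RNase P and RNase MRP, 8 were kept, and RPP14 and RPP30 were not. In limma 0 passed, with 0 at an unadjusted p under 0.05, beside 3.73% of all kept rows. The groups did not overlap in 1 of the 8, beside 7.91% of all kept rows. Their log2 differences ran from -0.09 to 0.15, with a median of 0.02. RPP40 had 0.15 (SE 0.14) and RPP21 had 0.09 (SE 0.07), both proteins of this list (limma, adjusted p = 0.999 for each). RPP21 had all Stau1 arrays above all controls and RPP40 did not.

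All 22 U4 and U6 snRNP proteins were kept, and in limma 0 passed. At an unadjusted p under 0.05 there were 0, beside 3.73% of all kept rows. The groups did not overlap in 1 of the 22, beside 7.91% of all kept rows. The median log2 difference was 0.00853, with 12 higher and 10 lower. SART3, which helps U4 and U6 to pair again after splicing, had the largest, 0.31 (SE 0.15), with groups that did not overlap. PRPF3, a protein of the U4/U6 particle, differed by 0.21 (SE 0.14) and its groups overlapped (limma, adjusted p = 0.999 for each).

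Of the 5 Ro, La and vault proteins, SSB (La), TROVE2 (Ro) and PARP4 (of the vault) were kept. In limma 0 passed, with 1 of the 3 at an unadjusted p under 0.05, beside 3.73% of all kept rows. The groups did not overlap in 1 of the 3, beside 7.91% of all kept rows. PARP4 differed by 0.26 (SE 0.11) without overlap of the groups, TROVE2 by -0.07 (SE 0.11) with overlap and SSB by -0.07 (limma, adjusted p = 0.999 for each).

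RNA polymerase III and its factors make most of these RNAs. Of 29 listed genes 28 had a row and 23 were kept. In limma 0 passed in either direction, with 1 of the 23 at an unadjusted p under 0.05, beside 3.73% of all kept rows. The groups did not overlap in 2 of the 23, beside 7.91% of all kept rows. The median log2 difference was 0.06, with 15 genes higher and 8 lower, over a range from -0.29 (POLR3G, a polymerase subunit) to 0.38 (SNAPC4). SNAPC4, the largest subunit of the complex that binds the promoters of 7SK, H1 and U6 genes, had log2 values of 10.10, 10.07 and 10.53 in control replicates 1, 2 and 3. In Stau1 replicates 1, 2 and 3 it had 10.71, 10.55 and 10.58, all above the controls. Control replicate 3 lay nearest to them. The SE of its log2 difference was 0.13 (limma, adjusted p = 0.999).

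**Figure D4:**
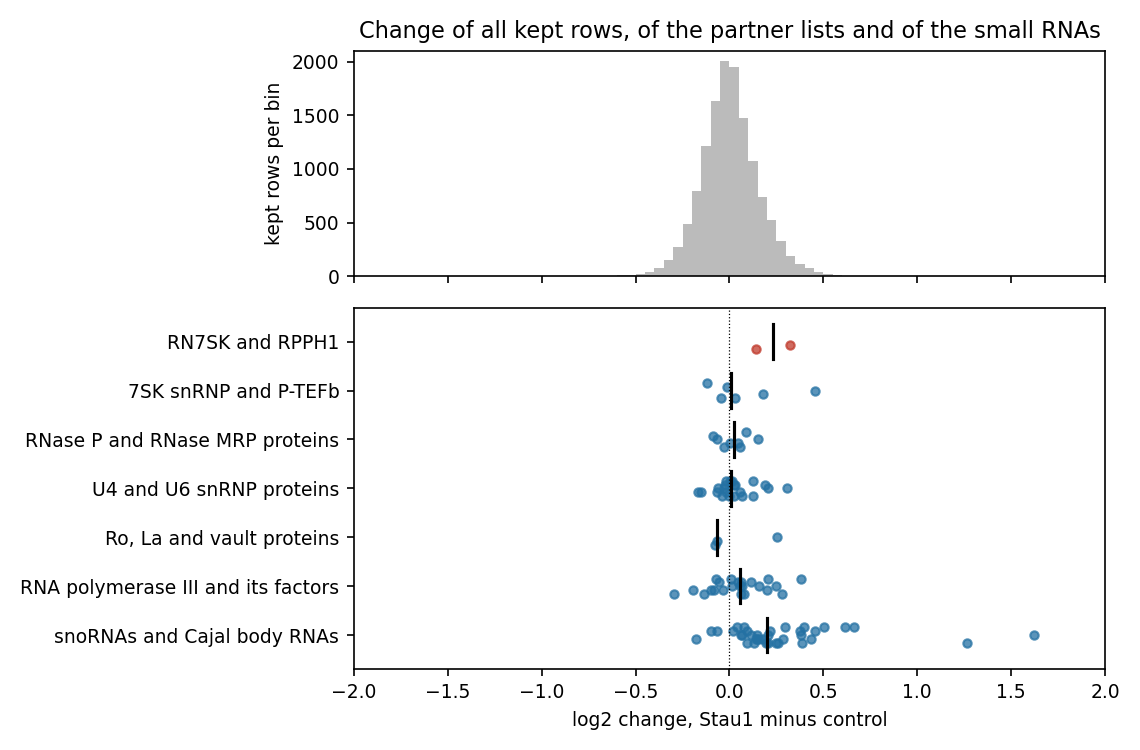
Top, histogram of the log2 difference (Stau1 minus control) over the 13285 kept rows. Bottom, the log2 difference of RN7SK and RPPH1, of each kept gene of 5 protein lists and of the 36 kept small nucleolar and Cajal body RNAs, with a bar at the median; the protein lists have medians from -0.07 to 0.06 and the small nucleolar class 0.20.

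The 5 kept rows with the profile most like the mean of RN7SK and RPPH1, among 5116 rows with a log2 range of at least 0.5, were ALPP, SSTR2, HS.441076, C22ORF32 and CCBE1. Pearson's r over the 6 arrays was 0.992, 0.990, 0.987, 0.984 and 0.983 for these rows, and 131 of the 5116 had an r over 0.9. None of the 5 passed in limma (adjusted p = 0.999 for each).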

How the data were processed

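Total RNA of 3 control and 3 Stau1 samples was hybridized to Illumina human BeadChip arrays and exported from BeadStudio. The deposited signal intensity per gene was, per the file headers, not normalized; it is a mean over the probes of a gene. The authors deposited a detection p-value beside each intensity. Other deposited columns held the SE and the mean number of beads. No value column was left without a sample.

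The background was fitted with limma 3.58.1 (R 4.3.3) from the detection p of the 30932 rows of 1 probe (those whose bead number was whole and whose detection p was a whole multiple of its smallest step, tolerance 0.002). It was corrected with normexp (offset 16), followed by quantile normalization and log2. Background means per array were 74.6 to 92.7 and SDs 15.2 to 18.2. The filter kept 35.1% of rows (detection p below 0.05, 3 or more arrays). Groups were compared with lmFit and eBayes with a variance trend, and Benjamini-Hochberg adjustment over all kept rows, at 0.05. Samples were grouped by the transfection in the labels. The number of arrays limits the precision.

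The RNAs, lists and tests were chosen with earlier results of these data known. For each protein list the 2 kept rows with the lowest p were named by rule, except 1 that is not reported here. HEXIM1, CDK9, SSB, POLR3G, RPP14 and RPP30 were named outside it. Symbols were taken from the deposited table. Figures were drawn with matplotlib 3.10.9. Alternatives are in the closing section.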

Additional observations from a re-analysis of the deposited data

How the results depend on the processing

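The count of RN7SK and RPPH1 called was 0 under all 12 alternatives with all 6 arrays and 0 in each of the 6 fits that left out 1 array. With all arrays the log2 difference ran from 0.0330 for RN7SK and 0.0204 for RPPH1, both when all rows set the background, to 0.222 and 0.345, both with median scaling, with a lowest adjusted p of 0.926 and 0.614. The other alternatives were no background correction, an offset of 50, cyclic loess, no filter, a stricter filter, array weights, a replicate block, a fit without the variance trend and the methods' t-test. The stricter filter, a detection p below 0.01 on every array, removed RPPH1. With 1 array left out RN7SK ran from -0.0248 to 0.280, the sign turning without Stau1 replicate 1, and RPPH1 from 0.180 to 0.528. Their median ran from 0.0775 to 0.384. The cause was not tested. Same-numbered arrays deviated with correlations of 0.02, 0.26 and -0.14 over kept rows, and the numbers were therefore not taken to pair them. With the replicate block the log2 difference was 0.143 for RN7SK (adjusted p = 0.995) and 0.322 for RPPH1 (adjusted p = 0.986). RPPH1 lay near background, and how small a difference could be detected there was not tested.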
